A study of Mus musculus with 19 samples.

Results

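Arrest of the cell cycle is enforced largely by small proteins that bind cyclin-dependent kinases (CDKs), and 9 mouse genes linked to such arrest were followed here in single blastocysts with and without a functional Upf2 gene, out of 41388 genes in the count table. The set holds 6 CDK inhibitors, Cdkn1a, Cdkn1b, Cdkn2a, Cdkn2b, Cdkn2c and Cdkn2d, taken in by family name, and 3 genes, Rassf1, Gorab and Txnl4b, that the study itself grouped under cell cycle arrest after comparing these same embryos. Values of Rassf1, Gorab and Txnl4b in this comparison are therefore given as a description, with no test, and only the CDK inhibitors carry p-values. All 9 genes were found by their GRCm38 symbol, and all 9 passed the filter of at least 10 counts in at least 1 embryo that left 17137 genes for testing. Cdkn2a passed through 1 embryo only.

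The libraries came from whole early blastocysts at E3.25 (embryonic day), each sequenced alone: 8 Upf2-null embryos (Upf2-/-) and 11 control embryos (Upf2+/+). All were C57BL/6 embryos from crosses of Upf2-heterozygous parents; the females were 4 to 8 weeks old and superovulated, and zygotes were grown in culture and collected 90 to 94 h after hCG, the hormone that triggers ovulation. The null allele lacks exons 2 and 3 of Upf2 after recombination by Cre driven by the E2a promoter, and a shortened protein without decay activity can remain. Genotypes come from the labels and rest, per the study's methods, on PCR of each embryo's cDNA and on read alignment at the deleted exons. Counts per gene do not separate the deleted exons, and Upf2 itself read 90.9 ± 21.3 CPM in Upf2-null embryos, against 57.8 ± 16.5 CPM in controls (SD, n = 8 and 11; CPM, counts relative to library size after TMM scaling).

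UPF2 is a core factor of nonsense-mediated mRNA decay (NMD), the pathway that destroys mRNAs whose stop codon lies well upstream of an exon-exon junction, where a protein complex left behind by splicing marks the RNA. CDK inhibitors come in 2 classes. The CIP/KIP proteins p21 (Cdkn1a) and p27 (Cdkn1b) bind cyclin-CDK complexes, and the INK4 proteins p16 (Cdkn2a), p15 (Cdkn2b), p18 (Cdkn2c) and p19 (Cdkn2d) bind CDK4 and CDK6 and keep D-type cyclins from activating them. Cdkn2a also encodes ARF in another reading frame, a protein that stabilizes p53, and counts per gene cannot tell the p16 and ARF transcripts apart.

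Library totals lay between 4056072 and 5993745 counts, with no detectable difference between genotypes (two-sided exact permutation test, p = 0.93, 8 against 11 embryos). Each embryo holds trophectoderm, epiblast and primitive endoderm cells, so fewer cells of a type and less RNA per cell cannot be told apart in any result here. Markers of the labelled tissue were present. The 9 trophectoderm markers summed to 1692 to 2300.2 CPM in Upf2-null embryos and 1531 to 2596 CPM in controls, and 10 cumulus and granulosa markers gave 7 counts over all Upf2-null and 11 over all control libraries, with Cyp19a1, Lhcgr and Fshr at 0. The summed level of the 8 epiblast markers was lower in Upf2-null embryos, at 356 to 467 CPM against 408 to 788 CPM in controls (exact permutation p = 0.00037, adjusted p = 0.0030 over 8 sample measures). Of the 8 markers, 5 were fitted below 0 and 3 above, and 2 of the lower ones, Nanog and Fgf4, had an unadjusted p under 0.05. Nanog read 175 ± 32.2 CPM in Upf2-null embryos, against 243 ± 45.9 CPM in controls, and Fgf4 read 6.82 ± 4.87 in Upf2-null and 34.2 ± 35.0 CPM in control embryos, which edgeR did not call (adjusted p = 0.15 for Nanog and 0.26 for Fgf4) and DESeq2 did (0.028 for Nanog and 0.058 for Fgf4). Primitive endoderm markers summed to 187 to 260 CPM in Upf2-null and 95.7 to 260 CPM in control embryos (exact permutation p = 0.11), and oocyte markers to 0.53 to 37.6 CPM in Upf2-null and 3.93 to 83.5 CPM in control embryos (p = 0.20, exact). The part of the epiblast shift in the results below was not tested.

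Per kilobase of exon, the 9 genes spanned a wide range. In the order of control levels, Cdkn1a came first with 43.8 ± 7.35 CPM per kb in Upf2-null embryos and 51.1 ± 13.5 CPM per kb in controls (SD), although Txnl4b and Cdkn2d averaged slightly more than Cdkn1a in Upf2-null embryos. Cdkn2d followed with 43.9 ± 17.0 in Upf2-null embryos and 41.3 ± 10.3 in controls, then Txnl4b with 45.6 ± 8.02 in Upf2-null and 29.6 ± 4.67 in control embryos. Gorab had 25.9 ± 7.59 CPM per kb in Upf2-null and 13.9 ± 3.45 in control embryos, and Cdkn2c had 12.3 ± 7.74 in Upf2-null and 9.11 ± 2.66 in control embryos. The low end held Rassf1 (9.70 ± 3.49 in Upf2-null embryos and 4.80 ± 1.64 in controls), Cdkn2b (5.53 ± 8.15 in Upf2-null and 3.53 ± 2.43 in control embryos), Cdkn1b (0.70 ± 0.46 in Upf2-null and 0.28 ± 0.25 in control embryos) and Cdkn2a (0.28 ± 0.79 in Upf2-null and 0.015 ± 0.051 in control embryos). In controls the neighbours Cdkn1a and Cdkn2d, Cdkn2d and Txnl4b, Gorab and Cdkn2c, Rassf1 and Cdkn2b, and Cdkn1b and Cdkn2a had overlapping ranges of mean ± SD. The place of Rassf1 depends on the length used: over its longest coding transcript it read 15.7 ± 5.38 CPM per kb in controls, level with Gorab at 15.6 ± 3.88.

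**Figure D1:**
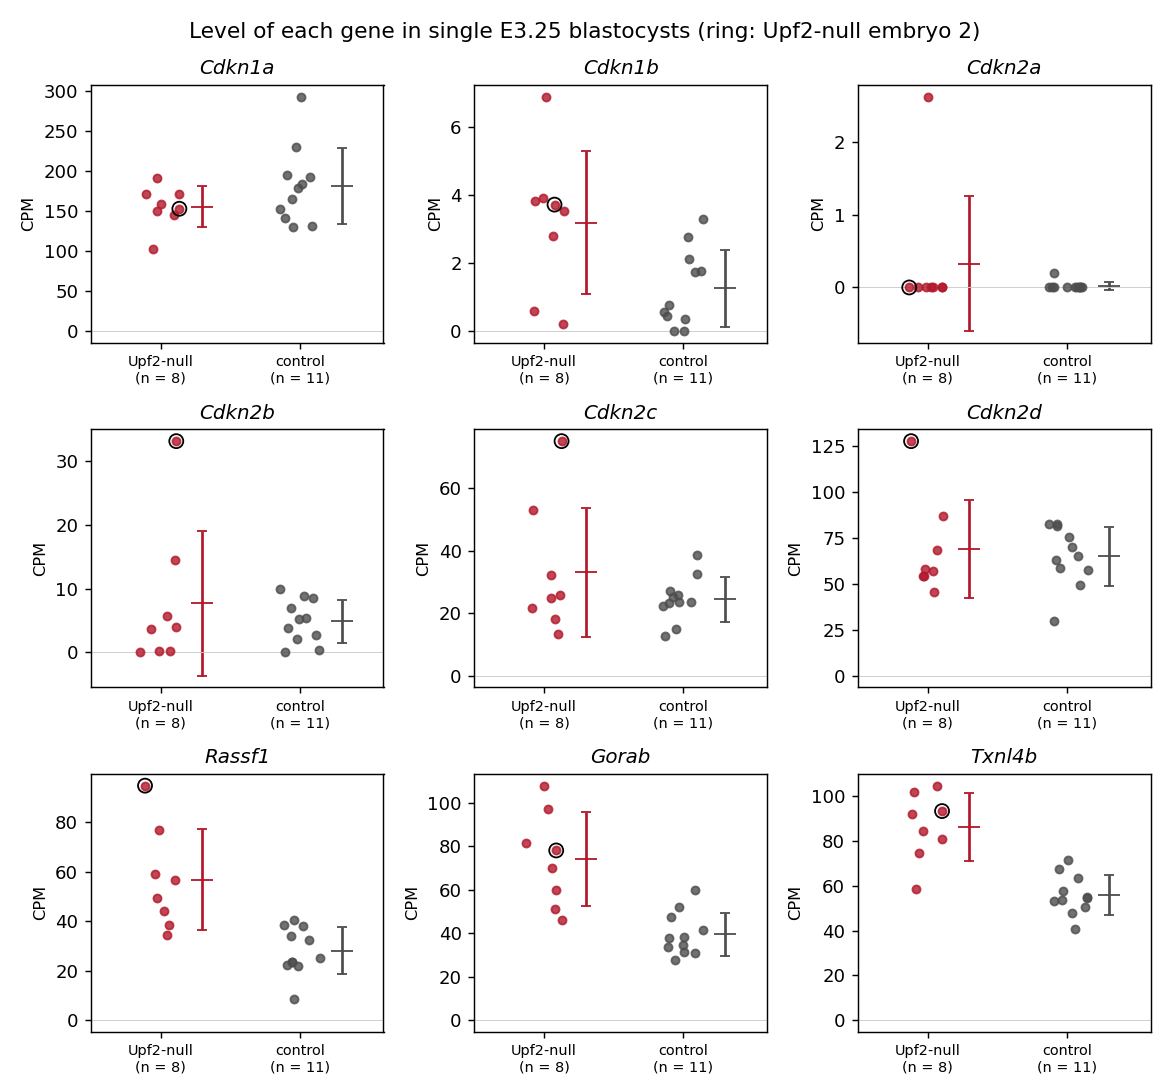
Level of each gene in CPM (vertical axes, each panel on its own linear scale) in 8 Upf2-null and 11 control blastocysts. Each point is an embryo, the cross bar and whisker give the mean and SD, and the ring marks Upf2-null embryo 2, which was the highest of all 19 embryos for Cdkn2b (33.1 CPM), Cdkn2c (75.1), Cdkn2d (128) and Rassf1 (94.8).

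None of the 6 CDK inhibitors passed the edgeR threshold of adjusted p under 0.1 in either direction, where 0.193% of all tested genes did (0.175% higher and 0.0175% lower in Upf2-null embryos). At an unadjusted p under 0.05, where 12.5% of all tested genes lay (5.15% higher and 7.38% lower), none of Cdkn1a, Cdkn1b, Cdkn2b, Cdkn2c and Cdkn2d was found. Cdkn2a lay under that value, but it passed the filter only through 1 Upf2-null embryo and is not read as a difference. DESeq2, which called 1.03% of all genes, also called none of the 6, but it gave Cdkn2a no adjusted p.

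Cdkn1a, on chromosome 17 (chr17:29090976-29100727, plus strand, GRCm38), encodes the inhibitor that p53 induces after DNA damage. Its 8 Upf2-null values were 159, 153, 171, 172, 103, 151, 145 and 192 CPM. The 11 controls ran from 130 CPM through a median of 179 to 293 CPM. Only 1 Upf2-null embryo lay above the control median, yet the groups overlapped over most of their range, and the log2 fold change was -0.22 ± 0.14 (SE; edgeR adjusted p = 0.63). The SD was 16.8% of the mean in Upf2-null embryos, the lowest share among the 9 genes, and 26.5% in controls.

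Cdkn1b, on chromosome 6 (chr6:134920401-134925513, plus strand), encodes p27, which holds cells out of the cycle when growth factors are withdrawn. It was barely detected. Raw counts were 3, 21, 22, 18, 18, 1, 14 and 29 in the 8 Upf2-null embryos. The 11 controls had 0 to 17 counts, with 2 of them at 0, and a total of 68 counts against 126 in the Upf2-null embryos. On the scaled values, 5 of 8 Upf2-null embryos exceeded the highest control (3.29 CPM), while Upf2-null embryos 1 and 6 lay at 0.58 and 0.22 CPM, below the control median of 0.77. The log2 fold change was 1.32 ± 0.77 (edgeR adjusted p = 0.55, and 0.43 to 1.0 over 31 alternative fits).

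The INK4 genes Cdkn2a and Cdkn2b lie side by side on the minus strand of chromosome 4, 11645 bases apart (chr4:89274471-89294653 and chr4:89306299-89311039). Cdkn2a was listed at 0 counts in 7 of 8 Upf2-null embryos and in 10 of 11 controls. Upf2-null embryo 8 held 11 counts (2.62 CPM) and control embryo 9 held 1 count. A count of 0 allows up to 3 counts, which is 0.52 to 0.77 CPM in these libraries, and this limit covers counting error only. With 17 embryos at 0, the edgeR result (adjusted p = 0.27) rests on 1 embryo, and without Upf2-null embryo 8 the gene no longer passed the count filter.

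Cdkn2b encodes p15, an inhibitor that TGF-beta signalling induces in many epithelial cells. Its Upf2-null values were 4.04, 33.1, 0.17, 3.70, 0, 5.75, 0.20 and 14.5 CPM. The controls ran from 0 through 5.19 to 9.88 CPM. Upf2-null embryo 2 stood above every other embryo and 5 of 8 Upf2-null embryos lay below the control median. The log2 fold change was 0.64 ± 0.90 (edgeR adjusted p = 0.89), and it turned to -0.28 without Upf2-null embryo 2.

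Cdkn2c, also on chromosome 4 (chr4:109660876-109667189, minus strand), encodes p18. The Upf2-null embryos read 24.8, 75.1, 13.4, 25.9, 32.3, 53.0, 18.1 and 21.6 CPM, against 12.6 to 38.5 CPM with a median of 23.6 CPM in controls. Embryos 2 and 6 alone exceeded the control range. The log2 fold change of 0.43 ± 0.30 was not called (edgeR adjusted p = 0.65) and was 0.14 without Upf2-null embryo 2.

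Cdkn2d, on chromosome 9 (chr9:21288410-21291407, minus strand), encodes p19 and was the most abundant INK4 gene. Its Upf2-null values were 54.5, 128, 56.8, 54.4, 68.5, 45.7, 58.0 and 87.3 CPM. Controls ran from 29.6 through 65.2 to 82.9 CPM. The ranges overlapped, 5 of 8 Upf2-null embryos lay below the control median, and the log2 fold change was 0.09 ± 0.21 (edgeR adjusted p = 0.95). It was -0.10 without Upf2-null embryo 2.

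Upf2-null embryo 2 was thus the highest embryo for Cdkn2b, Cdkn2c and Cdkn2d, and held no Cdkn2a count. It also had the lowest epiblast sum (356 CPM), the lowest mitochondrial share (0.116% of counts) and the lowest oocyte marker sum of all 19 embryos, ranked 18 of 19 for genes detected (15547) and had the second highest trophectoderm sum (2300.2 CPM). The part of these features in these levels was not tested.

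**Figure D2:**
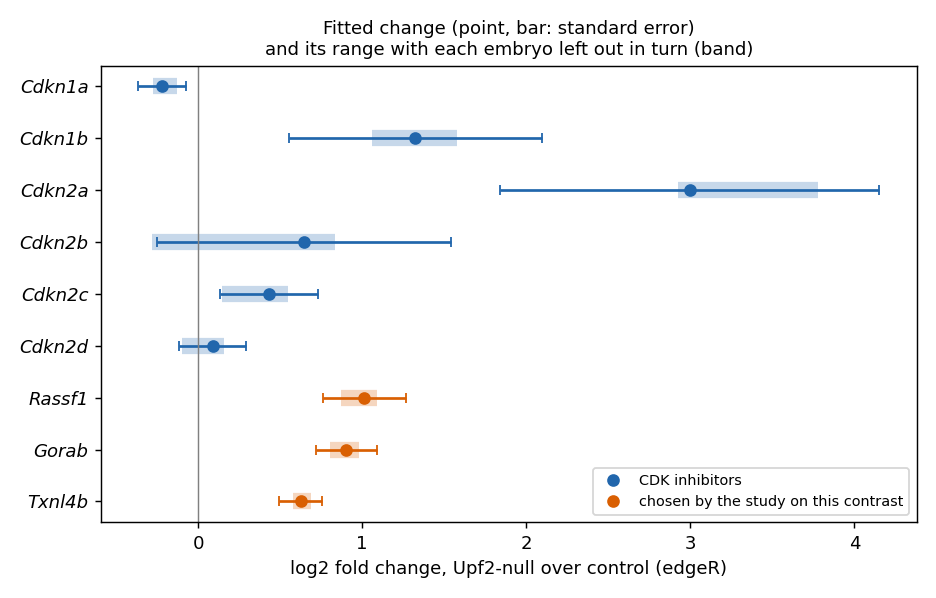
Log2 fold change of each gene, Upf2-null over control, from edgeR (point) with its standard error (whisker) and the range of the estimate when each embryo is left out in turn (band). The bands of Cdkn2b (-0.28 to 0.84) and Cdkn2d (-0.10 to 0.16) cross 0. Those of Cdkn1a (-0.28 to -0.13), Cdkn1b (1.06 to 1.57) and Cdkn2c (0.14 to 0.55) do not. The bands of Rassf1 (0.87 to 1.09), Gorab (0.81 to 0.98) and Txnl4b (0.58 to 0.69) also do not. These 3 genes were chosen on this contrast, so nothing is read from their bands. The Cdkn2a estimate rests on 11 counts in 1 Upf2-null embryo. Its band holds no fit without that embryo, since the gene then failed the count filter, so the band does not show how stable the estimate is.

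Rassf1, Gorab and Txnl4b had higher levels in Upf2-null embryos, which is the contrast they were chosen on. Gorab and Txnl4b were among the 30 genes that edgeR called higher and Rassf1 was not, while DESeq2 and limma voom called all 3. All 3 had every Upf2-null embryo above the control median, a pattern that 2.26% of tested genes showed, and none had groups that did not overlap, as 0.0875% of tested genes had. Since these calls and counts use the values that chose the genes, nothing is read from them.

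Rassf1 (chr9:107551555-107562267, plus strand) encodes a RAS-association domain protein and tumor suppressor, often silenced by promoter methylation in human cancers, that binds microtubules and the MST kinases of the Hippo pathway. Its Upf2-null values were 38.3, 94.8, 59.1, 49.4, 34.2, 76.9, 44.2 and 56.6 CPM. Controls ran from 8.49 through 25.2 to 40.6 CPM. The 2 lowest Upf2-null embryos, 1 and 5, fell inside the control range and the other 6 above it, with a log2 fold change of 1.01 ± 0.25. Of the exon bases of Rassf1, 42.7% are shared with the antisense gene Gm9917. The study mapped the reads as unstranded for its transcript models, and the strand setting of the counting is not given in the sources used here, so reads of the 2 genes may not be told apart where they overlap. Gm9917 itself held at most 9 counts in an Upf2-null embryo and 15 in a control. These counts do not show how reads in the shared bases were assigned.

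Gorab (chr1:163384908-163403669, minus strand) encodes a Golgi protein that binds RAB6 and also acts in centriole duplication in flies and human cells. The Upf2-null embryos read 60.1, 78.1, 51.2, 97.3, 45.9, 70.0, 108 and 81.6 CPM. Controls ran from 27.9 through 37.8 to 59.7 CPM. Embryos 3 and 5 of the Upf2-null group lay inside the control range and the other 6 above it. The log2 fold change was 0.90 ± 0.19.

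Txnl4b (chr8:109565892-109574051, plus strand) encodes a thioredoxin-like protein related to the U5 spliceosome protein TXNL4A, with a described role in pre-mRNA splicing and cell cycle progression. Its Upf2-null values were 74.5, 93.4, 92.0, 105, 102, 84.4, 58.4 and 80.8 CPM. Controls ran from 40.8 through 54.6 to 71.6 CPM. Upf2-null embryo 7 was inside the control range and the other 7 were above it, and the log2 fold change of 0.63 ± 0.13 had the smallest standard error of the set. The mean level was 1.54 times that of controls, against 1.87 times for Gorab and 2.02 times for Rassf1.

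The members differ in annotated transcript structure. A stop codon at least 50 bases before the last exon junction is the usual mark of an NMD target. In the GENCODE annotation 3 of 3 of Rassf1, Gorab and Txnl4b have a transcript of this kind and 0 of 6 CDK inhibitors do, while 27.3% of 14274 tested protein-coding genes with an annotated stop have one. Of the 21 protein-coding genes that edgeR called higher in Upf2-null embryos, 6 have one. Whether such a transcript is more common among called genes was not tested, and 21 genes are few for that question. Among the CDK inhibitors the largest distance from stop to last junction was 40 bases (Cdkn2d), then 21 (Cdkn2a) and 9 (Cdkn1b), and in Cdkn1a, Cdkn2b and Cdkn2c every annotated stop lies in the last exon. Cdkn1b carries the longest 3′ UTR of the set at 3439 bases, against a median of 1028 over those tested genes. Over 9 genes, 3 of them chosen on this contrast, these counts are a description. Counts per gene do not show which transcript was present.

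Gorab-203 is annotated as an NMD transcript. Its exon 2 runs 4 bases further than that of the main coding transcript Gorab-201 (chr1:163396808-163396811), which shifts the reading frame, and 60 bases into exon 3 the new frame meets a TAA, leaving 161 codons in place of 368 and 3 junctions downstream, the last 318 bases after the stop. It also has an exon of 138 bases (chr1:163393589-163393726) that Gorab-201 lacks. Both exon 2 to exon 3 junctions are shown to make the shift visible, with the bases flanking the junction (Gorab-201) or the 4 added bases (Gorab-203) in capitals, followed by the last bases up to each stop codon, in capitals.
Gorab-201 junction: agaaaatggaatTGcaagagaaatct
Gorab-203 junction: agaaaatggaattGTTAgcaagagaaatct
Gorab-201 stop: aagaacttttcagctgctgtggccacaTGA
Gorab-203 stop: agaacagcgactaatggaagagaaaaaTAA

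Rassf1-209, the NMD transcript of Rassf1, leaves out an exon of 107 bases (chr9:107554138-107554244) that Rassf1-202 includes. The length is not a multiple of 3, so the frame shifts at once: a TGA begins 2 bases after the junction and ends the frame after 84 codons, where Rassf1-202 reads 340. The last junction lies 514 bases after that stop, and 3 junctions follow it. The junctions are shown with the flanking bases in capitals, and the run to the Rassf1-209 stop with the stop codon in capitals.
Rassf1-202 junction: ctacagtgcgcgCActgcaagttcac
Rassf1-209 junction: ctacagtgcgcgCGatgaggctgtag
Rassf1-209 stop: gtgcgcaagggcctacagtgcgcgcgaTGA

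Txnl4b differs in that its protein is unchanged. Txnl4b-201 and Txnl4b-202 share the same 149 codons and the same TAA, and Txnl4b-202 removes a further intron of 362 bases (chr8:109572967-109573328) after the stop, which places a junction 107 bases downstream. Its biotype is protein coding, and 1.25% of tested protein-coding genes have a transcript of that biotype with such a stop. The shared end of the coding region is shown with the stop codon in capitals.
Txnl4b-201 and Txnl4b-202 stop: aaatatgacctcctctatcaagacattTAA

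**Figure D3:**
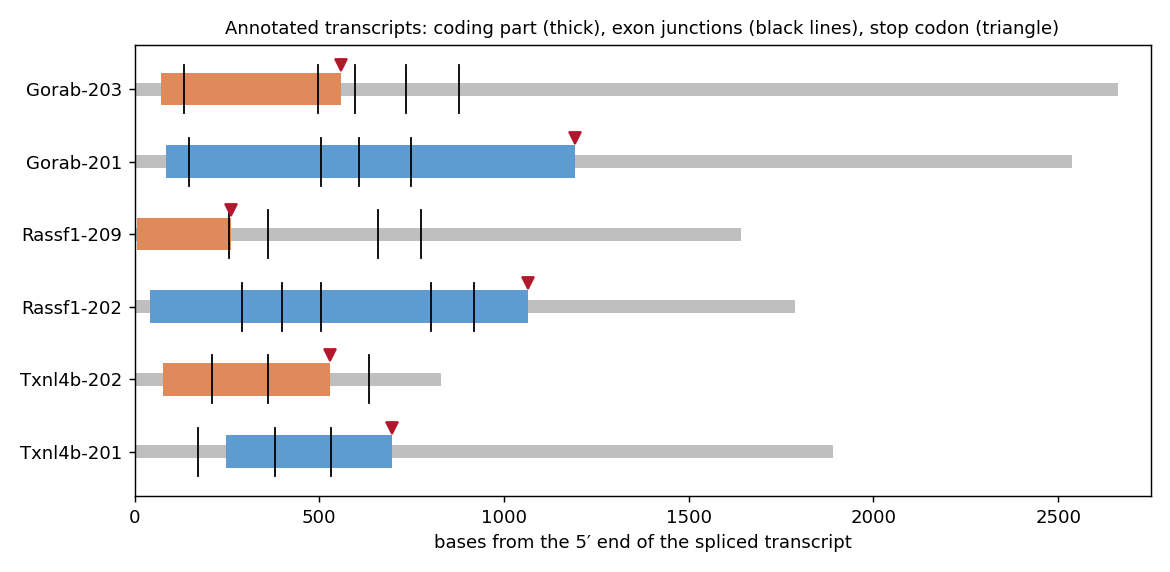
Spliced length of 6 annotated transcripts in bases from the 5′ end, with coding part thick (orange for transcripts with a stop at least 50 bases before the last junction, blue for the main coding transcript), exon junctions as black lines and the stop codon as a red triangle. Black lines follow the triangle in Gorab-203 (3), Rassf1-209 (3) and Txnl4b-202 (1), and none follows it in Gorab-201, Rassf1-202 or Txnl4b-201.

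The deposited transcript models, which were assembled over libraries and carry no value per embryo, add to this. The models keep annotated transcripts whether or not they were expressed, so only those with assembled identifiers count here. One of 4 assembled Gorab models uses the intron of 2115 bases that starts from the extended exon 2, without the 138-base exon. One of 3 assembled Txnl4b models uses the 362-base intron after the stop. No assembled model was present at Rassf1, whose 10 models were all annotated ones. Of the CDK inhibitors, Cdkn1a had 8 assembled models, Cdkn2c 2 and Cdkn2d 1, and Cdkn1b, Cdkn2a and Cdkn2b had none.

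Around the members, 9 lists of partners, regulators and readouts held 162 tested genes, and edgeR called none of them. DESeq2 and limma voom, with adjusted p under 0.1, also called none. At an unadjusted p under 0.05, 6 were higher and 6 lower in Upf2-null embryos, 7.41% of the 162 against 12.5% of all genes tested. Gadd45a and Mdm4, which the study grouped with Rassf1, Gorab and Txnl4b on this contrast, are in none of the lists, so these counts do not cover them. The median log2 fold change of the lists lay between -0.11 and 0.12, against -0.02 over all genes. No value below for a list gene passed the adjusted threshold, so the values are given without a direction call.

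The kinases and cyclins that the members act on showed the most small differences, with 5 of 20 tested genes at an unadjusted p under 0.05. Of these 5, 4 were lower and 1 was higher in Upf2-null embryos. Over all 20 genes, 11 were fitted below 0 and 9 above. The genes described next had the lowest p and were all lower, so the higher gene (log2 fold change 0.21 ± 0.09) is not among them. Cdc25b, a phosphatase that activates CDK1, read 8.04 ± 4.56 CPM in Upf2-null embryos, against 18.3 ± 9.43 CPM in controls (log2 fold change -1.18 ± 0.41; edgeR adjusted p = 0.26), and all but 1 of the Upf2-null values fell under the middle control. Ccnd3, the D-type cyclin whose kinases the INK4 proteins inhibit, read 165 ± 65.7 CPM in Upf2-null embryos, against 242 ± 37.5 CPM in controls (-0.55 ± 0.19; adjusted p = 0.26). Ccna2, the S-phase and G2 cyclin, read 325 ± 26.4 CPM in Upf2-null and 382 ± 57.8 CPM in control embryos (-0.23 ± 0.08; adjusted p = 0.26), with all 8 Upf2-null embryos below the control median.

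The other lists gave isolated genes. In the CDK inhibitor family outside the members, 1 of 5 genes lay under an unadjusted p of 0.05, Cdk2ap2, at 201 ± 20.0 CPM in Upf2-null embryos, against 179 ± 16.1 CPM in controls. Among 24 genes that turn over or repress CDK inhibitors, Myc, a repressor of Cdkn1a and Cdkn2b transcription, read 35.5 ± 14.4 CPM in Upf2-null and 65.4 ± 40.5 CPM in control embryos (log2 fold change -0.88 ± 0.36; adjusted p = 0.29), and Rbx1, the RING subunit of SCF ubiquitin ligases, 234 ± 29.4 CPM in Upf2-null and 204 ± 29.5 CPM in control embryos. Rbbp4, of the 19 RB, E2F and DREAM genes, read 121 ± 26.5 CPM in Upf2-null embryos, against 150 ± 28.0 CPM in controls.

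The partners of Rassf1, Gorab and Txnl4b themselves gave 2 genes. None of 14 RASSF and MST genes lay under an unadjusted p of 0.05. Rchy1, a p53 ubiquitin ligase that binds GORAB, read 142 ± 9.06 CPM in Upf2-null embryos, against 117 ± 20.0 CPM in controls (0.27 ± 0.10, edgeR adjusted p = 0.26). All 8 Upf2-null values exceeded the middle control, as for 2.26% of tested genes, and Rchy1 was named for its low p. Ppih, a cyclophilin of the U4/U6 particle, was the 1 gene of 14 in the TXNL4B list, with 199 ± 21.3 CPM in Upf2-null and 178 ± 13.6 CPM in control embryos.

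Among 27 other antiproliferative genes the 1 gene under an unadjusted p of 0.05 was Gadd45g, a stress-response gene, at 77.1 ± 41.5 CPM in Upf2-null embryos, against 36.3 ± 19.6 CPM in controls (1.09 ± 0.38; edgeR adjusted p = 0.26). None of 26 replication and mitosis genes, which serve as a readout of cycling cells, lay under that value. Of these 26, 19 were fitted below 0 and 7 above, with a median log2 fold change of -0.08, and 52.3% of all genes tested had one below 0.

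**Figure D4:**
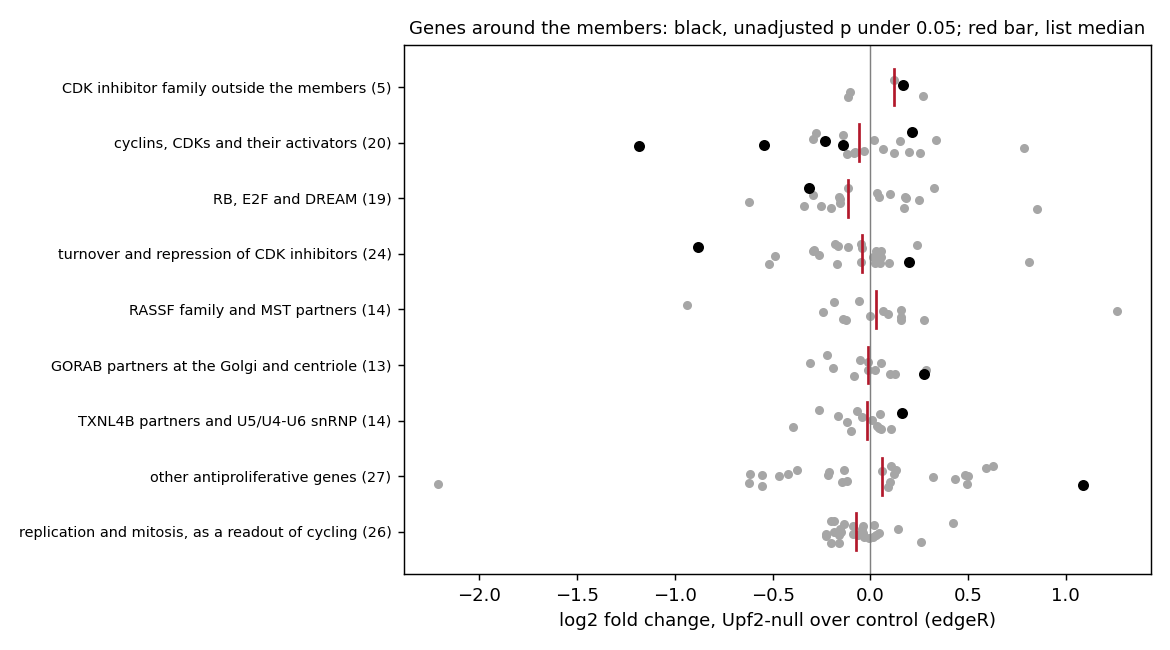
Log2 fold change, Upf2-null over control, of the tested genes of 9 lists around the members (number of genes in brackets), each point a gene, black where the unadjusted edgeR p was under 0.05, with the list median as a red bar. The medians lie between -0.11 and 0.12, and no gene passed the adjusted threshold.

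To see which genes varied with each member from embryo to embryo, log2 CPM was centred within each genotype and correlated over the 19 embryos with 9247 other genes of at least 10 CPM. All points share library depth and scaling, the closest genes were picked as the highest of 9247 values, and the values are a description. Cdkn1a varied most closely with Plk2, itself a p53-induced kinase gene (Pearson r = 0.78, and 0.87 over the 11 controls alone), then with Rusc1 (0.73). The 3 controls highest for Plk2 were embryos 4, 10 and 1, at 212, 157 and 149 CPM, and embryos 4 and 10 were also the highest controls for Cdkn1a, at 293 and 230 CPM.

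Cdkn2c was closest to Aldh1l1 (0.79) and to Wee1, the kinase that restrains CDK1 (0.78), and without Upf2-null embryo 2 these were 0.72 and 0.69. Cdkn2d was closest to Spata6 (0.87) and Epb41 (0.82). Rassf1 was closest to Mrs2, a mitochondrial magnesium channel gene (0.88), and Taf3 (0.85), Gorab to Cebpzos (0.80) and Pdcd2l (0.77), and Txnl4b to Cdc25b (0.83) and Arhgap8 (0.76). Over the 11 controls alone these 12 values lay between 0.73 and 0.96. The controls are part of the 19 embryos that picked these genes, so high values there are built in.

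The members were also compared with each other in the same way. Gorab and Txnl4b correlated at -0.01 over the 19 embryos and at 0.44 over the 11 controls, Rassf1 and Gorab at 0.02 and Rassf1 and Txnl4b at 0.05. The highest value among the 36 pairs was Cdkn1a with Cdkn2b (0.62), and the lowest was Cdkn1a with Txnl4b (-0.50), which stood at 0.79 and -0.74 over the controls alone. Cdkn2b with Cdkn2c (0.54) and with Cdkn2d (0.52) stood at 0.37 and 0.36 without Upf2-null embryo 2, and Cdkn2c with Cdkn2d, at 0.30, stood at -0.03.

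The nearest tested protein-coding gene on each side of the members gave no call by edgeR. Dhx38, which encodes a splicing helicase and starts 30 bases from Txnl4b on the opposite strand, read 43.9 ± 26.4 CPM in Upf2-null embryos, against 40.4 ± 20.1 CPM in controls (log2 fold change 0.12 ± 0.37; adjusted p = 0.97). Zmynd10, 235 bases before Rassf1, was near its detection limit at 2.24 ± 3.20 CPM in Upf2-null embryos, against 0.53 ± 0.88 CPM in controls, and Tusc2, 987 bases after Rassf1, read 182 ± 7.38 CPM in Upf2-null and 179 ± 23.3 CPM in control embryos. On the other side of Cdkn2b, 907780 bases away, Zfp352 reached 207 CPM in control embryo 2 and 137 CPM in control embryo 4 and at most 0.66 CPM in every other embryo. Without those 2 controls the log2 fold change was 0.89 for Gorab and 0.57 for Txnl4b.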

How the data were processed

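RNA of 19 single E3.25 blastocysts was amplified as full-length cDNA and each gave a library of its own. Per the labels and the study's methods, the authors used STAR 2.5.2a for alignment to GRCm38, took out PCR duplicates (SAMtools) and obtained the deposited raw counts of each gene from featureCounts. The deposited scaled table holds signal values, each a count times 1 factor per embryo: 100% of its values gave whole reads within 0.01. The merged transcript models (deposited positions, GRCm38) carry no values per embryo. Every value column belonged to a sample.

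The quasi-likelihood test of edgeR 4.0.16, with TMM factors, robust fitting and genotype as its single term, was run on 17137 genes that reached 10 counts in 1 or more embryos. Calls were made at an adjusted p (Benjamini-Hochberg) under 0.1. On the recovered reads edgeR called 30 genes higher and 3 lower. CPM used TMM factors, and correlations log2 CPM with a prior count of 2. Alternatives were DESeq2 1.42.0, limma 3.58.1 (voom; trend on log2 of the scaled value plus 1), other factors, filters, covariates and left-out embryos. The edgeR step was tested on simulated data. Symbols and transcripts came from GENCODE M21 (40254 of 41388 identifiers had a symbol), and sequences were read from its GRCm38 transcripts. Between embryos of a genotype the chi-square per gene was at least 10.5, so none was a repeat deposit. The study describes the controls as littermates of the Upf2-null embryos. Which embryos shared a litter, and whether those of a genotype came from separate litters, is not given. No litter term was therefore fitted, and p-values rest on the spread between these embryos, treated as independent.

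Members and lists were chosen with earlier results of these data known. Genes named are the 9 members, Upf2, from each list up to 3 genes with the lowest unadjusted p under 0.05, the 2 genes most alike to each member of at least 10 CPM and the nearest tested coding gene on each side. Nanog, Fgf4 and Gm9917 were named after their values were seen. The labels do not say that embryos with the same number in both genotypes belong together, and the main fit did not pair them.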

Additional observations from a re-analysis of the deposited data

Results flagged for a closer look

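In 2 members 1 of the 8 Upf2-null embryos stood apart from the rest by more than Dixon's 95% critical value allows. Cdkn2b read 33.1 CPM in Upf2-null embryo 2, with a gap to the next embryo of 0.56 of the group's range. Cdkn2a read 2.62 CPM in Upf2-null embryo 8 and 0 in the other 7, so its gap was the whole range by construction. It passed the count filter only through that embryo, and its flag is not read as a result. Chance flags about 1 in 20 groups of normally distributed values, a rate that does not hold for a group mostly at 0. The 11 controls were not put to this test.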

How the results depend on the processing

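Against 30 genes called higher and 3 lower by edgeR, DESeq2 gave 102 and 74, limma voom with quality weights 88 and 24, upper-quartile factors 15 higher, and leaving out Upf2-null embryo 2 with control embryos 2 and 4 (chosen after seeing the data) 19 and 0. The lower count was 6 with library total as a covariate and 5 with limma on the scaled table. Leaving out 1 embryo at a time gave 14 to 36 higher and 0 to 7 lower.

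Of the 2 members called higher (Gorab and Txnl4b, both chosen on this contrast, so that calls are a description), both were called with Rassf1 by DESeq2 and limma voom, 1 was called without a low-count filter, and 0 with upper-quartile factors, without control embryos 2 and 4, and without those and Upf2-null embryo 2. With 1 embryo left out the count ran from 0 to 2: Gorab was called in 8 of 19 such fits (without Upf2-null embryos 1, 3 and 5 or control embryos 2, 5, 6, 10 and 11) and Txnl4b in 6 (without Upf2-null embryos 1 and 7 or control embryos 2, 5, 6 and 11). No CDK inhibitor and no gene of the 9 lists was called in any of the 31 alternatives that tested it. Cdkn2b turned to -1.10 under voom, -0.13 on the scaled table and -0.20 without the 3 embryos, and Cdkn2d to -0.16 under voom and -0.12 without the 3 embryos. With 1 embryo left out Cdkn2b ran from -0.28 to 0.84 and Cdkn2d from -0.10 to 0.16.

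No pairing of the genotypes by embryo number was seen: the deviations of same-numbered embryos correlated at -0.14 to 0.07 over 8 pairs, and 0 of 8 embryos were closest to their own number. These values cannot show whether same-numbered embryos shared a litter. With the replicate block 0 genes were called higher and 0 lower, 0 members were called, Cdkn2b stood at -0.39, Aldh1l1 at -0.17, Fmo1 at -0.12 and Plk2 at 0.49.

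Of 40 other named genes, 27 kept their direction in all alternatives. The rest, none called by edgeR, turned as follows on the log2 scale. Without the 3 embryos Aldh1l1 was -0.34, Arhgap8 -0.099, Dhx38 -0.064, Epb41 -0.24, Mtap -0.075, Srsf3 0.032, Tusc2 -0.035 and Wee1 -0.089. Without control embryos 2 and 4 Arhgap8 was -0.062, Dhx38 -0.011, Epb41 -0.062, Mtap -0.048, Plk2 0.082, Srsf3 0.014 and Tusc2 -0.038. Under voom Dhx38 was -0.12, Epb41 -0.22, Hp -0.012, Kifap3 -0.018, Mtap -0.035, Srsf3 0.011 and Tusc2 -0.00058, and on the scaled table Plk2 was 0.42. With 1 embryo left out Aldh1l1 ran from -0.17 to 0.50, Apold1 from -2.50 to 4.11, Arhgap8 from -0.036 to 0.11, Dhx38 from -0.10 to 0.30, Epb41 from -0.17 to 0.090, Kifap3 from -0.054 to 0.19, Mtap from -0.070 to 0.10, Plk2 from -0.42 to 0.15 and Tusc2 from -0.029 to 0.053. The cause was not tested. Counts were lowest for Cdkn2a and Cdkn1b. Over the longest coding transcript Cdkn1a read 87.2 CPM per kb in controls.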
